A study of Mus musculus with 16 samples.

Results

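The 10 genes described here are KLF2, KLF4, NOS3, EDN1, THBD, VWF, CDH5, TEK, CLEC14A and KDR, a set of genes that blood flow regulates in endothelium or that mark endothelial identity. They were taken by name from the deposited table of mouse aortic valve RNA, which writes symbols in capitals. All 10 have a row among the 20992 genes of that table, and all 10 were among the 15004 genes tested. The endothelium is the cell layer that covers both faces of a valve leaflet, and it senses the drag of blood, called shear stress. Steady shear is known to act through the kinase MAPK7 and MEF2 transcription factors to induce the transcription factors KLF2 and KLF4. These in turn raise NOS3, which makes the vasodilator nitric oxide, and THBD, which turns thrombin to an anticoagulant role, and lower EDN1, the precursor of the vasoconstrictor endothelin.

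RNA was measured in 15 libraries of aortic valves from mice on a C57BL/6J background. The groups were control mice (CON, n = 4), hypertensive mice that overexpress transgenes for human renin and human angiotensinogen (HT, n = 4), hypercholesterolaemic ApoE knockout mice (HC, n = 4) and mice labelled as a combined high cholesterol and hypertensive model (HC/HT, n = 3 of 4 planned). Each library was taken as 1 mouse, and the labelled sex was female in 1 of 4 in CON, 3 of 4 in HC, 2 of 4 in HT and 2 of 3 in HC/HT. The promoters that drive the transgenes, the mice's ages and diet, whether valves were pooled, and how far the leaflets were freed from the aortic wall and heart are details not found in the labels. The p-values below measure the spread between these libraries.

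The values are the authors' normalised counts multiplied by 1 common factor, so that the median library totals 1000000 units. All library totals are equal to within rounding, and the depth behind them is unknown. The 4 most abundant rows, ribosomal RNA among them, took from 32.4% to 62.7% of a library, and a larger share lowers every other gene. Median-of-ratios factors, a scaling that is insensitive to a few abundant rows, ranged from 0.626 to 1.32. The median difference over all genes was -0.42 in HT against CON, -0.20 in HC/HT against CON and -0.02 in HC against CON on the log2 scale, and between -0.02 and -0.01 after median-of-ratios scaling. Differences in HT against CON and average effects of HT are therefore given under both scalings. Replicate 2 of HC/HT and replicates 2 and 3 of HT had the lowest median Spearman correlations with the other libraries, from 0.89 to 0.895.

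Endothelial RNA was present in every library. A reference list of 17 other endothelial genes, PECAM1, TIE1 and ESAM among them, summed to 1361 to 2746 units in CON, 1590 to 2478 in HC, 1079 to 2208 in HT and 1643 to 2403 in HC/HT. No gene of this list was at 0 throughout a group, and the 4 groups overlapped. Genes of valve interstitial cells, the fibroblast-like cells of the leaflet, summed to between 6306 and 22056 units per library. Heart muscle genes reached 11597 units in HT replicate 2. Platelet genes summed to 1896 units in CON replicate 4 and to between 29.3 and 134.7 in the other libraries. In whole valves, fewer endothelial cells and less RNA per endothelial cell cannot be told apart.

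Per kilobase of exon, THBD had the highest mean of the 10 genes in every group, while the lowest was EDN1 in CON, KDR in HC and HC/HT, and CLEC14A in HT. In CON the level was 56.5 ± 17.0 units per kb (mean ± SD, n = 4) for THBD, 39.6 ± 17.7 for KLF2, 36.0 ± 12.2 for KLF4, 30.1 ± 7.98 for TEK and 23.8 ± 7.00 for CDH5. It was 12.9 ± 3.26 for VWF, 11.4 ± 3.31 for NOS3, 8.07 ± 2.22 for CLEC14A, 4.2 ± 1.81 for KDR and 3.43 ± 1.21 for EDN1. In this order the means of neighbours lay further apart than both of their SDs at the steps from CDH5 to VWF and from CLEC14A to KDR, and their ranges overlapped even there. In HC/HT, EDN1 stood at 21.8 ± 22.3 units per kb (n = 3) and KDR at 1.90 ± 1.39. In HT CLEC14A stood at 3.00 ± 1.43 (n = 4) beside 3.39 ± 1.71 for KDR, so the order of these low genes was not the same in every group.

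**Figure D1:**
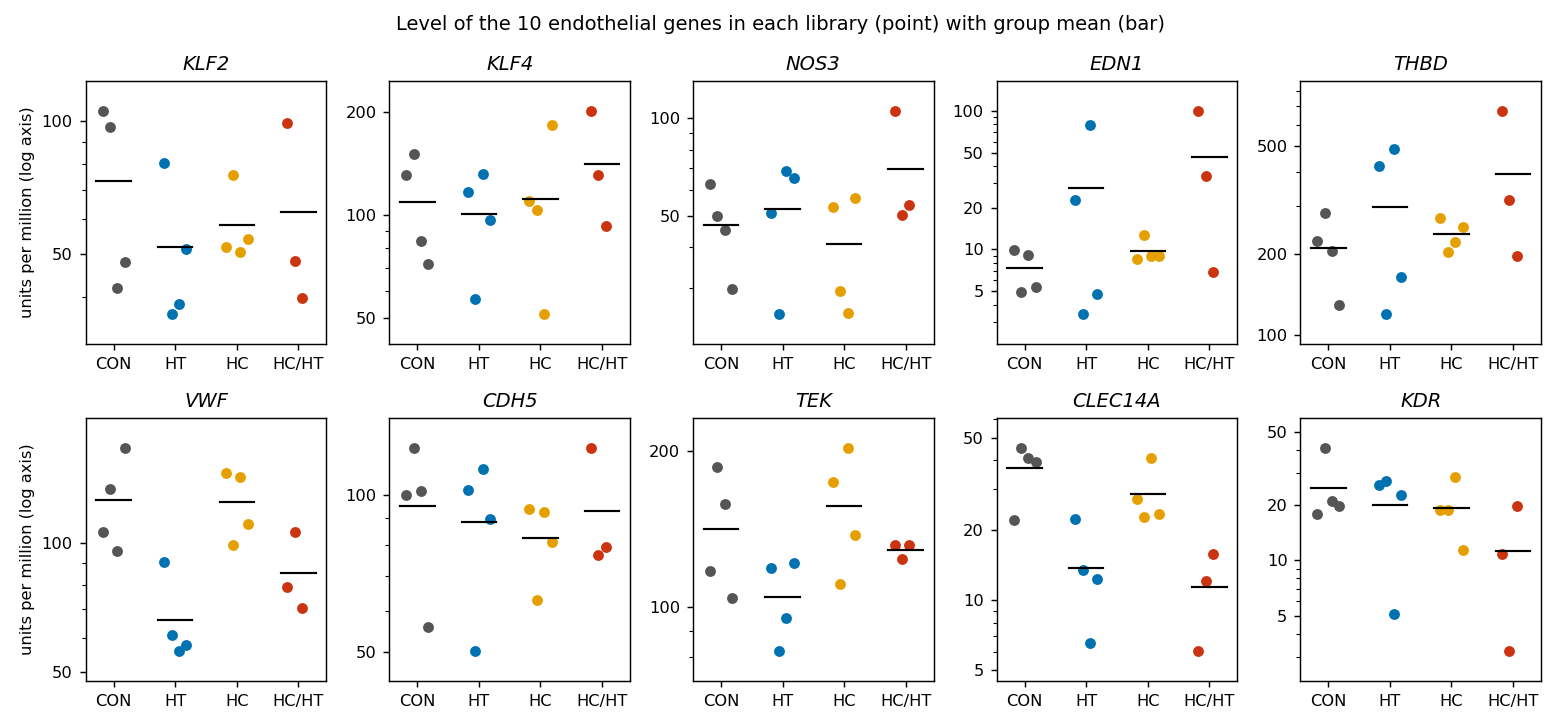
Level of each of the 10 genes in units, as deposited, on a log axis, 1 panel per gene, with 1 point per library and a bar at the group mean, for CON, HT, HC (n = 4 each) and HC/HT (n = 3). CLEC14A is lower in all 3 HC/HT libraries than in every CON library, VWF is lower in all 4 HT libraries than in every CON library, and EDN1 is spread from 3.43 to 99.4 units with its highest values in HT and HC/HT.

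CLEC14A was the 1 gene of the 10 that passed the test. It was lower in HC/HT than in control valves, and, as deposited but not after median-of-ratios scaling, lower in mice with the HT model than in those without it. CLEC14A is a C-type lectin-like glycoprotein of the endothelial surface, studied in sprouting vessels, and its gene lies on mm10 chromosome 12 from 58264720 to 58269290 on the minus strand. In replicate order its level was 22.1, 45.2, 41.0 and 39.3 units in CON and 27.3, 22.8, 40.8 and 23.6 in HC. It was 22.4, 13.5, 6.56 and 12.3 units in HT, and 6.07, 12.1 and 15.9 in HC/HT. All 3 HC/HT libraries lay below all 4 CON and all 4 HC libraries, while 1 HT library, replicate 1, lay above the lowest CON value. After median-of-ratios scaling all HC/HT libraries still lay below all HC libraries, as did 3.35% of all genes, but HC/HT replicate 3, at 17.3 units, lay just above CON replicate 1, at 17.1.

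The log2 difference of CLEC14A between HC/HT and CON was -1.95 ± 0.37 (SE), with a limma Benjamini-Hochberg adjusted p of 0.012 over all genes. In this comparison 0.467% of all genes tested passed, and 7.66% were lower with groups that do not overlap. After median-of-ratios scaling the difference was -1.75 with adjusted p 0.0248, and after scaling to the endothelial reference list it was -1.90 with adjusted p 0.0468. The call was lost without CON replicate 2 (adjusted p 0.0796), CON replicate 3 (0.0546), HC/HT replicate 1 (0.211) or HC/HT replicate 2 (0.0718), with differences from -2.06 to -1.75.

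Against HC, CLEC14A differed in HC/HT by -1.26 ± 0.36 on the log2 scale (limma p 0.00151, adjusted p 0.984), and 4.53% of all genes were likewise lower without overlap. Against HT the difference was -0.34 ± 0.36, with a 95% interval from -1.08 to 0.39. In HT against CON it was -1.60 ± 0.34 (adjusted p 0.262), and -1.16 after median-of-ratios scaling (adjusted p 0.959). In HC against CON it was -0.69 ± 0.36 (interval -1.42 to 0.04), and the interaction of HC and HT, the test of whether the HT difference depends on HC, was 0.35 ± 0.49 (adjusted p 1).

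The average effect of HT is the mean of the HT difference without and with HC. For CLEC14A it was -1.43 ± 0.24 (limma adjusted p 0.0375), in a comparison where 0.0133% of all genes passed. That share is 2 genes, CLEC14A and LYVE1, which binds hyaluronan on lymphatic vessels and on some macrophages. This call depended on the scaling: CLEC14A gave -1.11 (adjusted p 0.200) with median-of-ratios factors and -1.28 (0.180) with the endothelial reference. Omitting any of CON replicates 2 and 3, HT replicate 3, HC replicates 1, 2 and 3, and HC/HT replicates 1 and 2 also ended it, with adjusted p between 0.06 and 0.198.

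LYVE1, a marker of lymphatic endothelium, passed in both comparisons in which CLEC14A passed, HC/HT against CON and the average effect of HT. For the average effect of HT, where LYVE1 gave -2.44 ± 0.40 (limma adjusted p 0.0441), the call was lost for LYVE1 too with median-of-ratios factors (-2.13, adjusted p 0.206), and no gene passed with the endothelial reference. LYVE1 also passed for the average effect of HC (-2.06 ± 0.42, limma adjusted p 0.0137), where CLEC14A did not (-0.52 ± 0.26, adjusted p 0.528). The 6 lymphatic genes with a row summed to between 165 and 418 units in CON, 134 and 192 in HC, 70.2 and 185 in HT, and 78.6 and 146 in HC/HT. The 418 was that of CON replicate 4, and the other CON libraries held 165 to 222. Of the 6 genes, 5 were negative in HC/HT against CON and 6 in the average effect of HT. In each of these comparisons 1 of the 6 passed, LYVE1. Their median average effect of HT was -0.49 beside -0.30 for all genes, and -0.19 beside -0.01 after median-of-ratios scaling. LYVE1 stood at 40.2 ± 11.0 units in CON, 15.2 ± 8.57 in HC, 10.4 ± 7.99 in HT and 1.04 ± 0.688 in HC/HT, and fell by 4.50 on the log2 scale in HC/HT against CON (limma adjusted p 0.00129). The part of lymphatic cells in the CLEC14A result was not tested.

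KDR, the main receptor for VEGFA on endothelium, did not pass in any comparison. Its level was 17.9, 40.8, 21.1 and 19.7 units in CON, 18.9, 18.9, 28.3 and 11.4 in HC, 25.6, 26.9, 5.09 and 22.7 in HT, and 10.8, 3.23 and 19.7 in HC/HT. The lowest values were those of HC/HT replicate 2 and HT replicate 3, and all groups overlapped. The difference of KDR in HC/HT against CON was -1.50 ± 0.54 (limma p 0.0109, adjusted p 0.275), and without HC/HT replicate 2 it was -0.845. KDR lies on chromosome 5 from 75932827 to 75978458, minus strand.

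TEK, the receptor for the angiopoietins, and CDH5, the cadherin of endothelial junctions, did not pass in any comparison. TEK stood at 141 ± 37.5 units in CON, 156 ± 40.3 in HC, 105 ± 18.9 in HT and 129 ± 4.50 in HC/HT. The 3 HC/HT libraries, from 124 to 132 units, lay above the 4 HT libraries, from 82.4 to 122, as did 4.99% of all genes. This difference of TEK was 0.28 ± 0.31 (interval -0.36 to 0.91) as deposited and 0.01 after median-of-ratios scaling, where the groups overlapped. In HT against CON TEK differed by -0.47 ± 0.29 as deposited and 0.0009 after median-of-ratios scaling. CDH5 stood at 94.9 ± 28 units in CON, 82.5 ± 14.3 in HC, 88.6 ± 27.1 in HT and 93.0 ± 25.7 in HC/HT, with a difference of 0.01 ± 0.36 in HC/HT against CON (interval -0.72 to 0.74). In HT against CON CDH5 differed by -0.10 ± 0.32 as deposited and 0.38 after median-of-ratios scaling. The average effect of HT on CDH5 was 0.03 ± 0.23 as deposited and 0.36 after median-of-ratios scaling (limma adjusted p 0.547).

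VWF, the platelet-binding protein that endothelium stores and secretes, was, as deposited, lower in all 4 HT libraries than in all 4 CON libraries and did not pass over all genes. Its level was 106.7, 134.5, 96.2 and 167.5 units in CON, 146.5, 99.4, 143.4 and 111.1 in HC, 90.3, 61.0, 56.0 and 57.6 in HT, and 79.0, 106.7 and 70.5 in HC/HT. HT replicate 1 was the HT library nearest to CON, and HC/HT overlapped with CON. The log2 difference in HT against CON was -0.99 ± 0.29 (limma p 0.00185, adjusted p 0.351), and 4.15% of all genes were lower there without overlap. No gene passed in HT against CON (0% of those tested), while 1922 had an unadjusted limma p under 0.05, and 739 after median-of-ratios scaling. On that scaling VWF differed by -0.52 and the groups overlapped, with HT from 59.7 to 97.4 units and CON from 81.4 to 213.8.

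The average effect of HT on VWF was -0.76 ± 0.21 (limma p 0.00111, adjusted p 0.117), and -0.42 after median-of-ratios scaling. The highest VWF value, 167.5 units, was that of CON replicate 4, the library with 1896 units of platelet genes, and platelets also carry VWF. Without that library the difference of VWF in HT against CON was -0.825 (adjusted p 0.163) and the average effect of HT was -0.672 (adjusted p 0.0806). VWF lies on chromosome 6 from 125546774 to 125686679, plus strand.

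**Figure D2:**
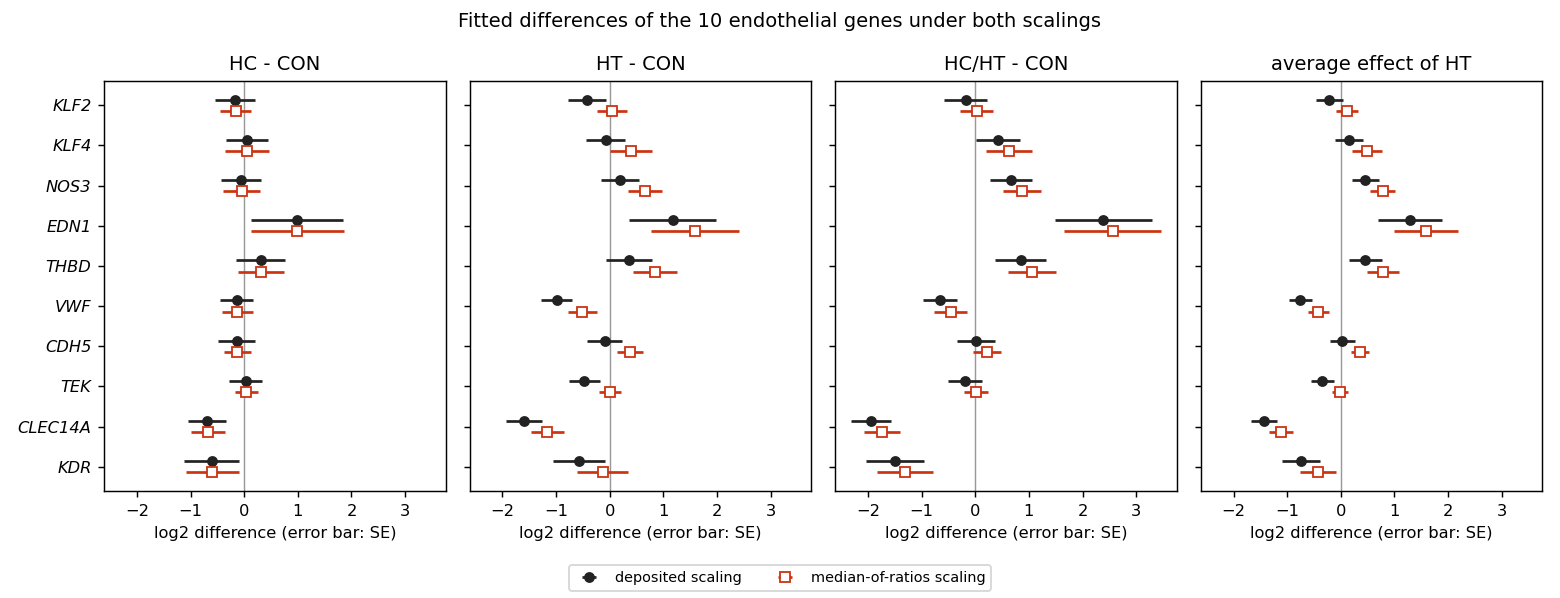
Fitted log2 difference (x axis, ± SE) of each gene (y axis) in HC, HT and HC/HT against CON and as the average effect of HT, with filled circles for the deposited scaling and open squares for median-of-ratios scaling. CLEC14A lies to the left of 0 in each panel, at -1.95 in HC/HT, and EDN1 has the widest error bars. The open squares lie to the right of the filled circles in the HT panel for all 10 genes.

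The flow-induced transcription factors did not differ between the groups beyond their spread. KLF2 is the factor most closely tied to steady laminar flow, and KLF4 shares many of its targets. The promoter sequences of KLF2, KLF4 and EDN1 are shown because these are the factors at the head of the flow response and the target that they lower. They are RefSeq sequences of build GRCm38.p6, written 5′ to 3′ on the gene's strand and ending before the annotated gene, at chr8:72318812-72319032 (plus strand) for KLF2, chr4:55532476-55532725 (minus strand) for KLF4 and chr13:42301226-42301475 (plus strand) for EDN1. Capitals mark the MEF2 box in KLF2, and in EDN1 the KLF box CACCC, read here on the other strand as GGGTG, and the shear stress element GAGACC, read here as GGTCTC.
KLF2: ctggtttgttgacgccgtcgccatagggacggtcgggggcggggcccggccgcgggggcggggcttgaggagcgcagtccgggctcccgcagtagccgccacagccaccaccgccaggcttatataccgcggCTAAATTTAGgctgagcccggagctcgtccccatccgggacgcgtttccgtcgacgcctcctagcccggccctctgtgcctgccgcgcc
KLF4: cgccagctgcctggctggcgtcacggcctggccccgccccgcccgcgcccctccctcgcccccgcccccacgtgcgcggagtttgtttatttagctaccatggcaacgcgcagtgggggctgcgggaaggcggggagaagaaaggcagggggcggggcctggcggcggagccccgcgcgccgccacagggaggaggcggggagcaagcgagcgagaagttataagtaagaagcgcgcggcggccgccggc
EDN1: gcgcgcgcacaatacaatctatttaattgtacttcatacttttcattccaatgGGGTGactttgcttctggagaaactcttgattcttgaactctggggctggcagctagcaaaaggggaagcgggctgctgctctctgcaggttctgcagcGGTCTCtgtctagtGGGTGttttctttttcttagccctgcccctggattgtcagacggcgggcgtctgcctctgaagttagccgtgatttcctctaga
The 250 bases before the RefSeq start were searched on both strands in 32851 promoters, and positions are counted back from that start. In KLF2 the RefSeq start lies inside the annotated gene, so the last 29 bases searched are not printed. The MEF2 box of KLF2 lies 118 to 109 bases before the RefSeq start, and 2.92% of all promoters hold such a box. The shear stress element of EDN1 lies 98 to 93 bases before the start and occurs in 13.7% of promoters. CACCC occurs in 52.0% of promoters. It occurs in EDN1 at 197 to 193 and at 84 to 80 bases, once each in KLF2 (at 19 to 15 bases, within the bases not printed), TEK, CLEC14A and KDR, and the KLF4 window holds none of the motifs searched. The AP-1 motif TGANTCA is in none of the 6 promoters that could be read and in 6.75% of all. A match is a run of letters and not a bound site. No promoter entry was used for NOS3, THBD, VWF and CDH5.

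KLF2 stood at 105.4, 97.2, 41.9 and 48.1 units in CON, 52.0, 75.6, 50.6 and 54.3 in HC, 80.7, 36.6, 38.5 and 51.4 in HT, and 99.0, 48.2 and 39.8 in HC/HT. Each group except HC held libraries near 40 units and at least 1 above 80, so the spread within groups exceeded the difference between them. The log2 difference of KLF2 was -0.17 ± 0.38 in HC (interval -0.94 to 0.60), -0.42 ± 0.36 in HT (-1.15 to 0.31) and -0.18 ± 0.40 in HC/HT (-0.99 to 0.63) against CON. After median-of-ratios scaling the HT value was 0.05, so its sign depends on the scaling. KLF2 lies on chromosome 8 from 72319033 to 72321656, plus strand.

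KLF4 ranged from 72.1 to 150.1 units in CON, 51.5 to 182.2 in HC, 57.0 to 131.7 in HT and 92.9 to 200.2 in HC/HT. All 4 ranges overlapped, and the highest values were those of HC/HT replicate 1 and HC replicate 4. The same libraries had the highest sums of 16 immediate early genes, which handling of tissue is known to induce together with KLF2 and KLF4, at 1118 and 1685 units beside 353 to 952 in the other libraries. KLF2 stood at 99.0 and 54.3 units in these libraries. After median-of-ratios scaling KLF4 was highest in HC replicate 4 (210.6 units) and HT replicate 3 (199.4), and HT replicate 3 had an immediate early sum of 580. The part of handling was not tested. The difference of KLF4 in HC/HT against CON was 0.43 ± 0.41 (interval -0.41 to 1.27). In HT it was -0.08 ± 0.37 as deposited and 0.39 after median-of-ratios scaling.

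NOS3 stood at 62.9, 50.1, 45.3 and 29.8 units in CON, 53.2, 29.4, 25.1 and 56.8 in HC, 51.2, 25.0, 68.8 and 65.4 in HT, and 104.9, 50.4 and 54.0 in HC/HT. HC/HT replicate 1 held the highest value of the series, and the other HC/HT libraries lay within the CON range. After median-of-ratios scaling all 3 HC/HT libraries lay above all 4 CON libraries in NOS3, as did 6.23% of all genes. The difference of NOS3 in HC/HT against CON was 0.66 ± 0.40 (limma adjusted p 0.572), with an interval from -0.15 to 1.47. The average effect of HT was 0.46 ± 0.26 as deposited and 0.79 after median-of-ratios scaling (limma p 0.0033, adjusted p 0.310). An exon of ATG9B on the opposite strand touches NOS3, and whether reads were counted by strand was not given in the sources used here. ATG9B had at most 8.52 units in any library.

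THBD varied most within the HT and HC/HT groups. It was at 223.4, 283.7, 204.5 and 129.8 units in CON beside 270.8, 202.9, 220.8 and 250.6 in HC. In HT it stood at 422.1, 120.1, 489.5 and 164.1 units, and in HC/HT at 671.1, 316.9 and 196.3. HT replicates 1 and 3 and HC/HT replicates 1 and 2 lay above every CON library, and the remaining HT and HC/HT libraries did not. The difference of THBD in HC/HT against CON was 0.85 ± 0.47 (limma adjusted p 0.538), and 0.190 without HC/HT replicate 1. In HT against CON THBD differed by 0.36 ± 0.43 as deposited and 0.84 after median-of-ratios scaling. The average effect of HT on THBD was 0.46 ± 0.31 as deposited and 0.79 after median-of-ratios scaling (limma p 0.0182, adjusted p 0.438).

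EDN1 showed the same libraries as high. Its level was 9.99, 4.90, 9.11 and 5.39 units in CON, 8.52, 12.7, 8.91 and 9.01 in HC, 22.7, 3.43, 79.5 and 4.80 in HT, and 99.4, 33.7 and 6.86 in HC/HT. HT replicates 1 and 3 and HC/HT replicates 1 and 2 lay above all 8 CON and HC libraries, whereas HT replicates 2 and 4 and HC/HT replicate 3 lay within the CON range or below it. The difference of EDN1 in HC/HT against CON was 2.38 ± 0.90 (limma p 0.0218, adjusted p 0.347), with an interval from 0.41 to 4.35. It was 1.60 without HC/HT replicate 1 and 3.10 without HC/HT replicate 3. In a fit of these groups alone it was 2.55 with limma adjusted p 0.022. Over all genes that fit called 56 higher and 95 lower, beside 22 and 48 as reported. EDN1 passed in HC/HT against CON in 1 of 29 alternatives. In HT against CON the difference of EDN1 was 1.17 ± 0.82 as deposited, 1.59 after median-of-ratios scaling, and 0.370 without HT replicate 3 as deposited. The average effect of HT on EDN1 was 1.29 ± 0.59 as deposited and 1.58 after median-of-ratios scaling (limma p 0.0208, adjusted p 0.450). The 4 high libraries include 1 male and 1 female of HT and 1 male and 1 female of HC/HT.

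No member passed in HC against CON, where 0.167% of all genes did, or in the average effect of HC, where 1.47% did. None passed in HC/HT against HC (0% of all genes, 661 at an unadjusted limma p under 0.05), in HC/HT against HT (0.373%) or in the interaction (0%, 207 unadjusted). At an unadjusted limma p under 0.05 there were 0 members in HC against CON (4.01% of all genes), 2 in HT against CON (12.8%), 4 in HC/HT against CON (11.4%), 1 in HC/HT against HC (4.41%) and 3 in the average effect of HT (16.7%). There were 0 in HC/HT against HT (8.71%), in the interaction (1.38%) and in the average effect of HC (9.84%). Apart from CLEC14A, VWF and TEK in the comparisons named above, the groups overlapped for every member as deposited. The shares of all genes without overlap were 2.81% higher and 1.76% lower in HC against CON, 0.0666% higher in HT against CON, 2.89% higher in HC/HT against CON, 1.02% higher in HC/HT against HC and 1.18% lower in HC/HT against HT, and 0 members were among these. The median difference of the 10 genes was -0.26 for HT and -0.09 for HC/HT, each against CON, beside medians of -0.42 and -0.20 over all genes. After median-of-ratios scaling these medians were 0.21 and 0.12, with 7 of 10 genes positive in each, against 3 and 5 of 10 as deposited.

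Ratios between genes of 1 library do not depend on the scaling, apart from the 1 unit added to both genes before the log2 ratio was taken. That unit weighs most on low genes such as EDN1, and the ranges of ratios are given without it. CDH5 served as the common denominator, and a ratio to it also carries any change of CDH5 itself. The average effect of HT on CDH5 was 0.03 as deposited and 0.36 after median-of-ratios scaling. The part of CDH5 in these ratios was not tested. The THBD to CDH5 ratio was between 2.01 and 2.32 in CON, 2.39 and 3.23 in HC, 1.83 and 4.37 in HT, and 2.47 and 5.47 in HC/HT. All HC and all HC/HT libraries lay above all CON libraries, and HT overlapped. The share of all genes whose ratio to CDH5 separates the groups in this way was not computed. The difference of the log2 ratio from CON was 0.37 in HC and 0.78 in HC/HT, each with a two-sided exact permutation p of 0.0286, the smallest that these group sizes allow, and 0.333 after adjustment over the 35 ratio tests.

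The VWF to CDH5 ratio was 0.946 to 2.99 in CON, 1.37 to 1.58 in HC, 0.5 to 1.21 in HT and 0.645 to 1.39 in HC/HT. The 2.99 was that of CON replicate 4, the library with 1896 units of platelet genes, and the other CON libraries held 0.946 to 1.10. Across HT and HC/HT against CON and HC, permuted within HC status, the log2 ratio differed by -0.76 (exact permutation p 0.00653, adjusted 0.229). With single libraries left out this difference was between -0.90 and -0.57. The NOS3 to CDH5 ratio differed by 0.41 in the same comparison (exact permutation p 0.0486, adjusted 0.376). The EDN1 to NOS3 ratio, constrictor precursor over dilator synthase, was 0.0978 to 0.201 in CON, 0.159 to 0.433 in HC, 0.0734 to 1.16 in HT and 0.127 to 0.948 in HC/HT, and its log2 difference in HC/HT against CON was 1.38 (exact permutation p 0.171). The KLF2 to CDH5 ratio overlapped in all groups, from 0.344 to 1.2. Of the 35 ratio tests 4 had an unadjusted p under 0.05 and 0 an adjusted p under 0.05.

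**Figure D3:**
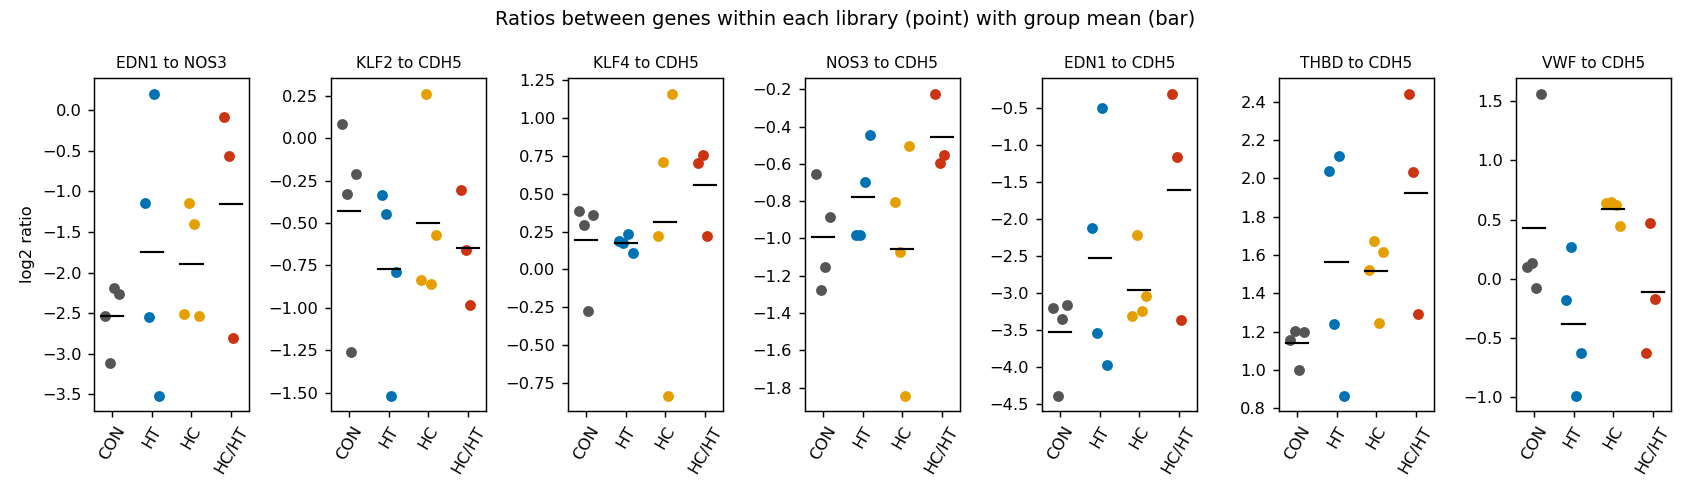
Log2 ratio of 7 gene pairs within each library (y axis, a separate scale in each panel), with 1 point per library and a bar at the group mean, for CON, HT, HC (n = 4 each) and HC/HT (n = 3). In the THBD to CDH5 panel the CON libraries lie between 1.00 and 1.21 and all HC and HC/HT libraries lie above them. The share of all genes with such a ratio to CDH5 was not computed.

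Across the 15 libraries each pair of EDN1, THBD, CDH5, NOS3 and KLF4 had a positive correlation. CLEC14A and KDR had negative ones with these genes, not all of which passed. Correlations were computed on log2 values after median-of-ratios scaling for all 45 pairs, and 14 passed at a Pearson permutation adjusted p under 0.05, of which 6 also passed by Spearman. EDN1 and THBD gave r = 0.931 (permutation p 8e-05, adjusted 0.003) and rho = 0.604 (permutation p 0.0201, adjusted 0.109). Without HC/HT replicate 1 and HT replicate 3, the libraries farthest out in EDN1, r was 0.758. After centring each group on its mean, r was 0.905. KLF4 with CDH5 was the pair of these 5 genes that did not pass by Pearson (r = 0.621, permutation p 0.0169, adjusted 0.0506), and it passed by Spearman (rho = 0.746, permutation p 0.00182, adjusted 0.0265). EDN1 and CDH5 gave r = 0.659 (permutation p 0.00843, adjusted 0.0332) and rho = 0.393 (permutation p 0.148, adjusted 0.257), a relation that rests on HC/HT replicate 1 and HT replicate 3, without which r was 0.0019. Without the same libraries THBD and CDH5 fell from r = 0.798 to 0.466.

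KLF4 and NOS3 gave r = 0.844 (permutation p 0.00015, adjusted 0.003) and rho = 0.718 (permutation p 0.00386, adjusted 0.0304), and r = 0.809 without the outermost 2 libraries. KLF4 and THBD gave r = 0.734 (permutation p 0.00132, adjusted 0.0119) and rho = 0.711 (permutation p 0.00406, adjusted 0.0304), with r = 0.903 without those. NOS3 and CDH5 gave r = 0.795 (permutation p 0.0003, adjusted 0.00337) and rho = 0.739 (permutation p 0.00236, adjusted 0.0265), with r = 0.811 without the outermost 2. After centring on the group means r was 0.837, 0.678 and 0.732 for these pairs.

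No pair with KLF2 passed, its known targets among them. With NOS3 it gave r = 0.312 (permutation p 0.258, adjusted 0.363) and rho = 0.146 (permutation p 0.601, adjusted 0.752), and r = 0.0944 without CON replicate 3 and HC/HT replicate 1. With THBD it gave r = 0.372 (permutation p 0.172, adjusted 0.310) and rho = 0.221 (permutation p 0.427, adjusted 0.583), and r = 0.0968 without those. With KLF4 it gave r = 0.530 (permutation p 0.0413, adjusted 0.093) and rho = 0.514 (permutation p 0.0516, adjusted 0.179), and r = 0.371 without those. Whether these r differ from those of KLF4 was not tested. EDN1, which these factors are known to lower, was positive with KLF2 and with KLF4. With KLF2 it gave r = 0.317 (permutation p 0.252, adjusted 0.363) and rho = 0.232 (permutation p 0.406, adjusted 0.571). With KLF4 it gave r = 0.631 (permutation p 0.0116, adjusted 0.0372) and rho = 0.482 (permutation p 0.0717, adjusted 0.191). Why the sign was positive was not tested.

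NOS3 and CLEC14A gave r = -0.726 (permutation p 0.00232, adjusted 0.0137) and rho = -0.757 (permutation p 0.00131, adjusted 0.0265), with r = -0.673 without HC replicate 3 and HT replicate 3. EDN1 and KDR gave r = -0.723 (permutation p 0.00324, adjusted 0.0162) and rho = -0.746 (permutation p 0.00211, adjusted 0.0265), with r = -0.741 without HC/HT replicate 1 and HT replicate 3. EDN1 and CLEC14A gave r = -0.719 (permutation p 0.00244, adjusted 0.0137) and rho = -0.504 (permutation p 0.0589, adjusted 0.189). That relation rests on HC/HT replicate 1 and HT replicate 3, without which r was -0.365. THBD and CLEC14A gave r = -0.675 (permutation p 0.00577, adjusted 0.026) and rho = -0.421 (permutation p 0.119, adjusted 0.214), and r = -0.276 without those. CLEC14A with KLF4 and CDH5, and KDR with THBD, NOS3, KLF4 and CDH5, did not pass (Pearson adjusted p 0.0691 to 0.363). VWF and CLEC14A were positive, at r = 0.653 (permutation p 0.0096, adjusted 0.0332) and rho = 0.586 (permutation p 0.0243, adjusted 0.109). After centring on the groups, r was -0.583 for NOS3 and CLEC14A and -0.739 for EDN1 and KDR. The labels name no batch within which these values could be recomputed.

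**Figure D4:**
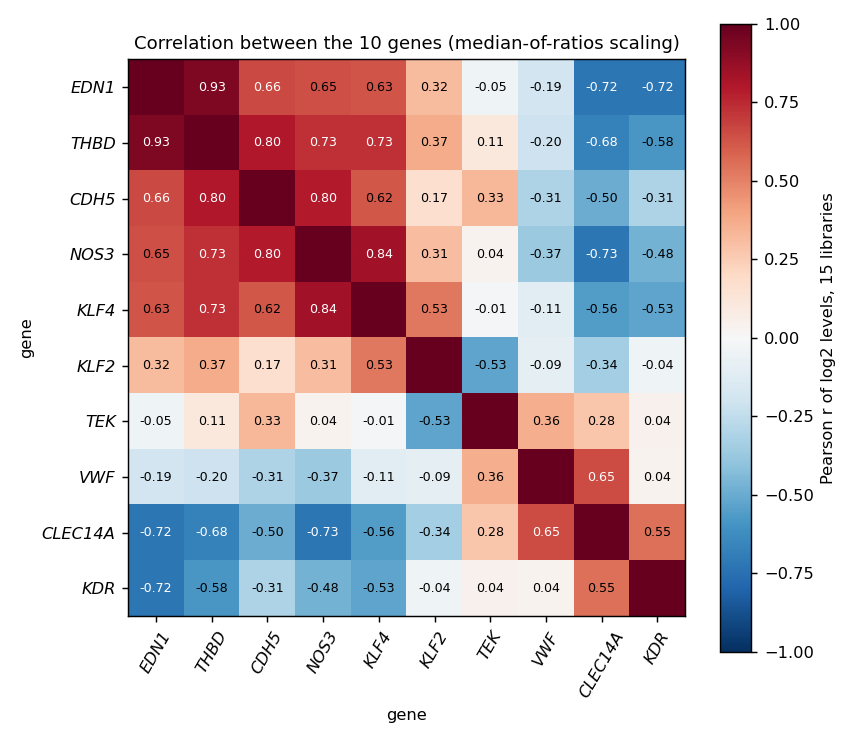
Pearson r between the 10 genes over 15 libraries, on log2 values after median-of-ratios scaling, with genes on both axes and colour from -1 to 1. EDN1, THBD, CDH5, NOS3 and KLF4 are positive with each other, highest for EDN1 and THBD, while CLEC14A and KDR are negative with each of these 5 genes.

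**Figure D5:**
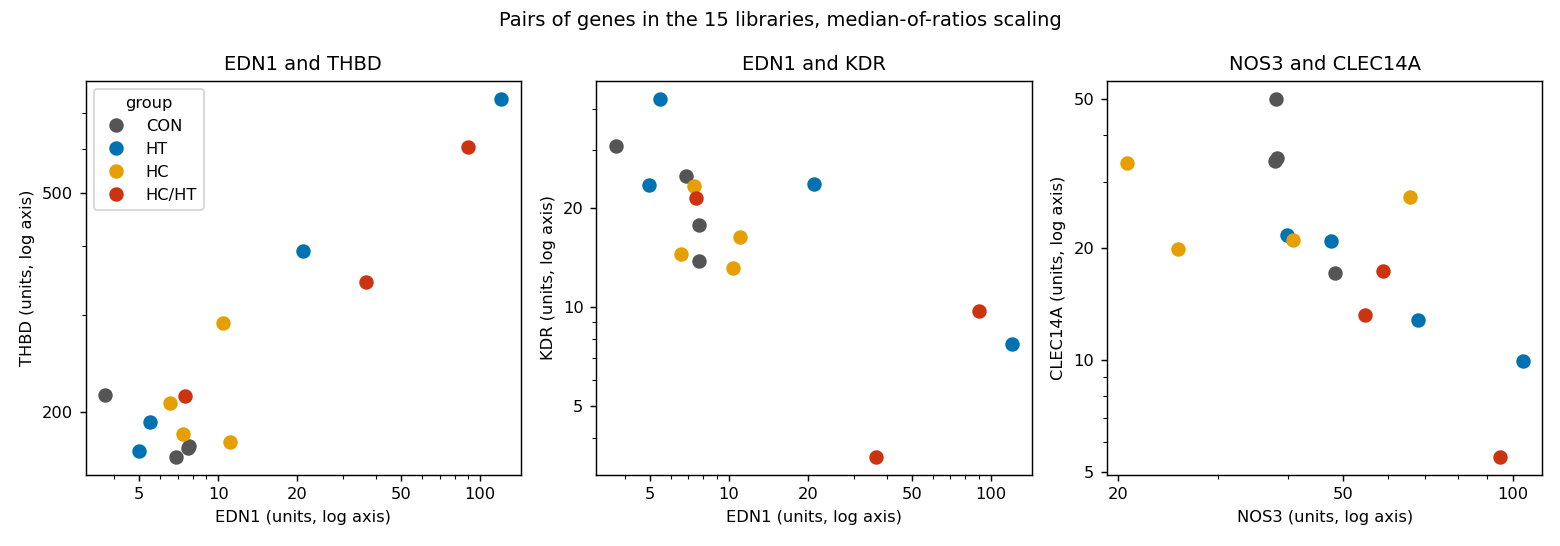
Level of EDN1 against THBD, EDN1 against KDR and NOS3 against CLEC14A in 15 libraries, on log axes in units after median-of-ratios scaling, coloured by group. HT replicate 3 and HC/HT replicate 1 lie at the high end of EDN1 and THBD in the left panel, and HC/HT replicate 1 is the lowest in CLEC14A in the right panel.

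The genes whose levels followed CDH5 most closely over the 15 libraries, by Spearman rho among 13217 genes with a current symbol, were LIMCH1 (0.929), SHROOM4 (0.907), PCDH12 (0.889), 2900026A02RIK, DRP2, TNFRSF10B, PIK3R3, KLHL5, FAM167A and ESYT3 (0.854). PCDH12 is a cadherin of endothelial junctions. For KLF2 they were TOB2 (0.807), KLF16 (0.796), PRR5L (0.796), PGRMC2, TSPAN3, TPRGL, CTNS, HSPB8, SERTAD2 and ZFP593 (0.739). None of the other 9 genes described here is among the 10 nearest to KLF2 or to CDH5. The median rho with the 17 endothelial reference genes was 0.407 for KLF4, 0.336 for CDH5, 0.329 for NOS3, 0.261 for THBD and 0.157 for KLF2. It was 0.0929 for EDN1, -0.0321 for VWF, -0.0357 for TEK, -0.168 for CLEC14A and -0.368 for KDR. The median over all genes was between -0.0286 and 0.0107 for each of the 10.

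The cascade that leads from shear to KLF2 showed no gene that passed. Of its 12 genes all were tested, 3 were positive and 9 negative in HC/HT against CON, and the median was -0.15 beside -0.20 for all genes. MEF2C, a MEF2 factor, stood at 89.1 ± 11.0 units in CON, 73.9 ± 11.9 in HC, 52.1 ± 22.9 in HT and 54.4 ± 9.33 in HC/HT, with an average effect of HT of -0.64 ± 0.22 (limma adjusted p 0.179), and -0.31 after median-of-ratios scaling. MAPK7 was at 9.23 ± 3.66 units in CON beside 9.01 ± 4.09 in HC/HT, MEF2A at 115 ± 30.8 and 105 ± 25.6, and MEF2D at 36.9 ± 10.5 and 40.3 ± 13.1. Of CCM2, which restrains this cascade, the difference was -0.99 ± 0.35 in HT against CON (adjusted p 0.351), and -0.57 after median-of-ratios scaling.

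Among 15 mechanosensing genes, none passed. TRPV4, a calcium channel opened by flow and stretch, had the smallest p in HC/HT against CON, with 13.0 ± 5.81 units in CON, 17.8 ± 3.24 in HC, 22.4 ± 14.0 in HT and 38.1 ± 19.4 in HC/HT and a difference of 1.69 ± 0.44 (limma adjusted p 0.0897). PIEZO1, a stretch-activated channel, was at 57.8 ± 23.3 units in CON beside 81.1 ± 19.3 in HC/HT (0.62 ± 0.35, adjusted p 0.545). PKD2, a channel of the primary cilium, gave -0.79 ± 0.34 (adjusted p 0.373).

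Other genes known to respond to steady flow numbered 19 with a row and 18 tested, and 1 of them passed, in the average effect of HC, where 1.47% of all genes did. HMOX1, the haem-degrading enzyme, rose with HC, from 9.65 ± 3.85 units in CON and 5.07 ± 1.73 in HT to 21.1 ± 7.97 in HC and 17.0 ± 5.39 in HC/HT. The average effect of HC on HMOX1 was 1.30 ± 0.30 (limma adjusted p 0.0192). Macrophages also make HMOX1, and 5 of 12 macrophage genes passed as higher in the same comparison, with sums of 977 to 1563 units in CON, 2265 to 4419 in HC, 203 to 1589 in HT and 1949 to 2892 in HC/HT. The part of macrophages in the HMOX1 result was not tested. In HC/HT against CON, SEMA7A (1.57 ± 0.52, adjusted p 0.211) and NPPC (1.62 ± 0.59, adjusted p 0.280) had the smallest p of this list.

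Of 15 genes linked to low or disturbed flow, 2 rose in the average effect of HC, where 1.47% of all genes passed, and both are selectins, which tether leukocytes to endothelium. SELP stood at 33.7 ± 8.84 units in CON, 87.3 ± 40.1 in HC, 25.6 ± 2.78 in HT and 71.9 ± 32.9 in HC/HT, with an average effect of HC of 1.17 ± 0.24 (limma adjusted p 0.00854). SELE stood at 11.0 ± 2.75 units in CON, 24.1 ± 11.2 in HC, 12 ± 8.06 in HT and 35.6 ± 4.48 in HC/HT, with 1.34 ± 0.34 (adjusted p 0.0396, and 0.0966 after median-of-ratios scaling). Platelets store SELP too, and platelet genes summed to between 36.4 and 134.7 units in HC and HC/HT beside 52.8 to 1896 in CON; their part was not tested. VCAM1 (0.71 ± 0.32, adjusted p 0.447) and ICAM1 (0.42 ± 0.24, adjusted p 0.617) did not pass in that comparison.

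The lists drawn up for partners of the endothelial signals held 1 gene that passed, ANGPTL1, in the average effect of HC, where 1.47% of all genes did. It is angiopoietin-like by name, and whether it acts on TEK was not tested. Of the endothelin system 4 of 6 genes were tested and 3 were negative in HC/HT against CON: ECE1, the enzyme that releases endothelin, gave -0.51 ± 0.36 (limma adjusted p 0.641), and its receptors EDNRA and EDNRB gave -0.86 ± 0.40 (0.419) and -1.20 ± 0.77 (0.627). Of the nitric oxide system 14 of 16 were tested and 9 were negative, among them PDE5A, which breaks down cyclic GMP (-1.19 ± 0.37, adjusted p 0.176), GUCY1A3, a subunit of the nitric oxide receptor (-1.87 ± 0.64, 0.276), and CAV1, a scaffold that holds NOS3 inactive (-0.64 ± 0.40, 0.592). The medians of the endothelin and nitric oxide lists were -0.69 and -0.50, beside -0.20 for all genes. After median-of-ratios scaling they were -0.49 and -0.30, beside -0.02. Markers of muscle were lower in the same comparison. All 10 smooth muscle genes were negative in HC/HT against CON, with a median of -2.22, and their sums were 300 to 2828 units in CON beside 87.6 to 146 in HC/HT. Of these MYLK, myosin light chain kinase, passed as lower (-2.59 ± 0.53, limma adjusted p 0.0416, and 0.0726 after median-of-ratios scaling). All 11 heart muscle genes were negative too, with a median of -2.14 and sums of 523 to 3612 units in CON beside 177 to 369 in HC/HT, and none passed. Whether smooth or heart muscle has a part in the values of these partner genes was not tested.

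Of the angiopoietin system 5 of 6 genes were tested. ANGPTL1 fell by 1.17 ± 0.30 in the average effect of HC (limma adjusted p 0.0397, and 0.0589 after median-of-ratios scaling), at low levels of 2.74 ± 1.76 units in CON, 0.931 ± 0.379 in HT and at most 0.588 in HC and HC/HT. ANGPT1, the activating ligand of TEK, was at 42.5 ± 20.8 units in CON beside 13.3 ± 7.49 in HC/HT (-1.91 ± 0.56, adjusted p 0.170), ANGPT2 at 6.32 ± 2.90 and 8.42 ± 1.48, TIE1 at 38.7 ± 9.24 and 40.9 ± 8.52, and PTPRB, the phosphatase that acts on TEK, at 893 ± 240 and 821 ± 155. Of the VEGF system all 9 genes were tested and 7 were negative in HC/HT against CON. Their median was -0.15 beside -0.20 for all genes, and 0.05 beside -0.02 after median-of-ratios scaling. FIGF, the older symbol of Vegfd, had the smallest p in the average effect of HT (-1.14 ± 0.26, adjusted p 0.0832, and -0.84 with 0.236 after median-of-ratios scaling), and VEGFA was at 89.7 ± 30.2 units in CON beside 85.6 ± 20.7 in HC/HT, and FLT1 at 118 ± 33.8 and 104 ± 36.5.

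Of 13 genes of anticoagulant and fibrinolytic function, the partners of THBD and VWF, none passed. F2R, the thrombin receptor, gave -1.04 ± 0.37 in HC/HT against CON (limma adjusted p 0.247) and F3, tissue factor, -1.26 ± 0.45 (0.254). PROCR, the receptor that works with THBD on protein C, stood at 22.8 ± 12.9 units in CON, 31.4 ± 16.4 in HC, 47.1 ± 33.4 in HT and 47.9 ± 26.8 in HC/HT (1.04 ± 0.73, adjusted p 0.666). In the endothelial reference list none of 17 passed in any comparison. PECAM1 gave 0.30 ± 0.39, ESAM -0.14 ± 0.40 and EGFL7 -0.43 ± 0.58 in HC/HT against CON, and SOX17, a factor of arterial endothelium, had the smallest p (1.80 ± 0.69, adjusted p 0.325).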

How the data were processed

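RNA of mouse aortic valves was extracted with Trizol and RNeasy columns, and libraries were made with the Nugen Ovation and KAPA kits, per the labels' protocols. FastQC 0.11.2, Bowtie 1.0.1, SAMtools 0.1.9, edgeR and the build mm10 are named in the submitters' processing notes; for the normalisation, the method was not given in the sources used here. As deposited, the unit is a score, whole numbers that the authors normalised to nearly equal library totals in 1 table, so no count model was fitted. Of the value columns, 15 carry a library name and 1 without a name was not used.

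All values were multiplied by 0.0979537 and tested as log2(value + 1) with limma 3.58.1 under R 4.3.3, using lmFit and contrasts.fit followed by eBayes with trend and robust, with group and sex as terms and all 15 libraries in 1 fit. A gene entered the test when 4 or more libraries held 1 unit or more of it, and a call needs a two-sided p under 0.05 after Benjamini-Hochberg adjustment over all of them. The pseudocount makes differences of low genes smaller. The 8 comparisons were each model and HC/HT against CON, HC/HT against HC and against HT, the interaction, and the average effects of HC and of HT. Ratios were tested by exact permutation, and correlations with 100000 permutations. The fit was tested on simulated data. Exon lengths and gene positions are those of GENCODE M21 (mm10); promoter sequences are RefSeq's. Alternatives were 3 other scalings (median of ratios, endothelial reference, quantile), pseudocounts of 0.25 and 4, other filters, no sex term, a replicate block, array weights, plain eBayes, a threshold of 0.1, fits of the compared groups alone and omission of each library. Omitting the 3 libraries that correlate least with the others was added after seeing the data.

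The 10 genes, the gene lists and the rule for naming genes were chosen with earlier results of these data known. The rule names all 10 genes, each list gene that passed or else those with the smallest p, 22 genes of the flow and receptor pathways, and the 10 genes nearest to KLF2 and to CDH5. Each library was taken as 1 mouse, since the design plans 4 per group; the labels do not state whether valves were pooled, in which case p-values measure the spread between these libraries only.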

Additional observations from a re-analysis of the deposited data

Results flagged for a closer look

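In 4 of the 30 groups of 4 libraries tested, 1 library stood apart from the others of its group by Dixon's criterion; chance alone is expected to do this in about 1 in 20 groups. KLF2 stood at 75.62 units in HC replicate 2, the other HC libraries lying between 50.6 and 54.3. EDN1 stood at 12.73 units in the same library, HC replicate 2, with the others between 8.52 and 9.01. HC replicate 2 is the only male of its group. VWF stood at 90.31 units in HT replicate 1, above 56.0 to 61.0 in the other HT libraries. KDR stood at 40.85 units in CON replicate 2, the only CON female, above 17.9 to 21.1 in the other CON libraries. Without HC replicate 2 the difference in HC against CON was -0.372 for KLF2 (-0.17 with all libraries) and 1.30 for EDN1 (0.98). Without HT replicate 1 VWF in HT against CON was -1.09 (-0.99 with all), and without CON replicate 2 KDR in HC/HT against CON was -1.28 (-1.50 with all).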

How the results depend on the processing

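The number of the 10 genes that passed depended on the settings in HT against CON, in HC/HT against CON and in the average effect of HT, and was 0 in the other comparisons under every alternative. In HT against CON it was 0 as reported, 2 with array weights and 1 in a fit of the groups alone (over all genes 0, then 412 lower, then 4 higher and 204 lower). In HC/HT against CON it was 1 as reported, 2 with array weights and 2 in a fit of the groups alone, and between 0 and 1 with single libraries left out. Over all genes the first 3 of these fits called 22 higher and 48 lower, then 130 and 596, then 56 and 95. In the average effect of HT it was 1 as reported, 0 with median-of-ratios factors, 0 with the endothelial reference, 0 with quantile normalisation, 0 with no filter, 0 with no sex term, 0 with eBayes without trend and robust, and 0 without the 3 libraries that correlate least with the others (CLEC14A then at -1.23, adjusted p 0.450). It was 2 with array weights, and between 0 and 2 with single libraries left out. Of 45 correlations, 14 passed as reported, 6 after centring on the group means, and between 3 and 16 with single libraries left out, with 3 without HT replicate 3, 4 without HC/HT replicate 1 and 9 without CON replicate 4. The centred values were permuted over all libraries, not within groups, with no allowance for the group means taken out. The count after centring may therefore be too high. No ratio test passed under any alternative.

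CLEC14A in HC/HT against CON kept its negative sign in all 29 alternatives, from -2.09 to -1.66, and passed in 25 of them. VWF in the average effect of HT passed with array weights (-0.703, adjusted p 0.0163), with the replicate block (-0.742, adjusted p 0.0396) and without HC replicate 4 (-0.795, adjusted p 0.0424). Over all genes these fits called 30 higher and 2059 lower, 16 and 752, and 7 and 514 in that comparison, beside 0 and 2 in the fit reported. KDR in HC/HT against CON passed with array weights (-1.70, adjusted p 0.0434), where 130 genes were called higher and 596 lower, beside 22 and 48 as reported. Of the 80 differences (10 genes in 8 comparisons), median-of-ratios scaling changed the sign of 16, quantile normalisation of 13 and the endothelial reference of 7, none of them past the threshold in either fit.

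The replicate block, which adds the labels' replicate number as a term, raised the number of the 10 genes passed in the average effect of HT from 1 to 2, and the calls over all genes from 0 higher and 2 lower to 16 higher and 752 lower. Whether the numbers pair the libraries cannot be told from these values. Over 21 same-numbered pairs the correlation of deviations from the group means was between -0.114 and 0.267, with a median of 0.084. Over the 63 other pairs between groups it was between -0.273 and 0.379, with a median of -0.071. Of the 15 libraries, 4 correlated best with their own number, and what equal numbers share is not given in the labels. The depth behind the values is unknown, so no limit of detection can be given for low genes such as EDN1 and KDR.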
